A study of Mus musculus with 6 samples.

Results

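Prostaglandins and endocannabinoids are short-lived lipid signals made by enzymes from membrane arachidonate. Cyclooxygenases turn free arachidonate into prostaglandin H2, which terminal synthases convert to prostaglandin D2 or E2. Diacylglycerol lipases make the endocannabinoid 2-arachidonoylglycerol, monoacylglycerol lipase cleaves it to arachidonate and glycerol, and fatty acid amide hydrolase degrades anandamide. The hydrolases thus end endocannabinoid signals and can return arachidonate to the prostaglandin route. The genes described are 8 of 18324 gene rows of the count table: *Ptgds*, *Mgll*, *Ptges*, *Ptges2*, *Ptges3*, *Faah*, *Dagla* and *Daglb*, taken by mouse symbol. *Ptgds* and *Mgll* were selected on their counts in these libraries, because they had been seen higher in high-pigmented cells, so their values in that comparison are a description and carry no test. The other members were taken for their place in the same pathways.

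The cells were of B16-F10, a pigmented mouse melanoma line kept in medium with serum and antibiotics, with no agent or genetic change named in the labels. Flow sorting split them into a high-pigmented and a low-pigmented population, and 3 libraries were made from each population. One high- and one low-pigmented library share each title suffix, and these are called pairs 1, 2 and 3. The labels do not say what the suffix marks or whether libraries came from separate cultures, so p-values measure only the spread between these libraries. All libraries come from 1 cell line. Reads came from the 3′ end of transcripts, so counts do not scale with transcript length. Levels are therefore set side by side between genes, though how fully each gene's reads were captured and assigned was not checked. Levels are given as CPM, the count scaled to a fixed library size after TMM scaling.

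Libraries held 3819605 to 7311131 counts on genes. The libraries of pair 2 stood apart: a row named RP23-81C12.3 took 53.9% of gene counts in the high- and 27.1% in the low-pigmented one, against 3.54% to 5.03% elsewhere, and the TMM factors were 0.452 and 0.736 against 1.31 to 1.33. The 7 melanocyte markers listed were present, with summed levels of 4418 to 20664 CPM in high- and 6154 to 17223 CPM in low-pigmented libraries, lowest in pair 2. Markers of 5 other cell types were listed: 1 of 5 leukocyte, 2 of 4 fibroblast and 1 of 3 endothelial markers were analysed here, and none of the 3 keratinocyte and 2 adipocyte markers. Their sums reached 1.78, 20.8 and 11.6 CPM, the last 2 in the high-pigmented library of pair 2, with fibroblast markers at most 4.28 CPM and endothelial markers at 0 in the rest. These sums speak of those 5 cell types alone, and most of their markers were not analysed here.

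Sequences upstream of RefSeq starts of *Ptgds* and *Mgll* are shown because their profiles over the libraries were close. They are RefSeq promoter windows on GRCm38.p6, written 5′ to 3′ on the gene's strand, with E-boxes of the letters CACGTG or CATGTG (on either strand) in capitals. E-boxes are the sites that MITF and other basic helix-loop-helix factors bind. The *Ptgds* stretch is chr2:25469843-25469999 on the minus strand and stops where an annotated untranslated region of the gene begins. It lies upstream of the RefSeq start but inside the annotated gene, in the first intron of a transcript that starts further upstream. The *Mgll* stretch is chr6:88724162-88724411 on the plus strand and ends at the first annotated start.
Ptgds: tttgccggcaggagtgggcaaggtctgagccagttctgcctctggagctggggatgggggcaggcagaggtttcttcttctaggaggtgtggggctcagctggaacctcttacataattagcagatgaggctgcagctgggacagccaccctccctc
Mgll: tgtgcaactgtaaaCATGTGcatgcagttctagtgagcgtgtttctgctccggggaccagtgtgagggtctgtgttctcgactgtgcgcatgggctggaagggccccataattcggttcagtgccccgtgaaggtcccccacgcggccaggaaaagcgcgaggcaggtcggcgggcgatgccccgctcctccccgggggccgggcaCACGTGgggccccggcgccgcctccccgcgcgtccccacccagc
The *Mgll* stretch held 1 CACGTG, beginning 44 bases before the start, and 1 CATGTG, beginning 236 bases before it, and the 2 do not overlap. Neither was found in the 250 bases before the RefSeq start of *Ptgds*. Neither was in the window of a second *Mgll* start. Windows were found for 7 of the 8 members, and the only other member with either motif in its window was *Ptges2*, with 1 CACGTG 77 bases before the start. Of 32851 promoter windows of 250 bases, 1978 (6.02%) held CACGTG, 4025 held CATGTG and 5789 (17.6%) held either. These matches describe letters only.

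*Ptgds* (GRCm38 chromosome 2, 25466709 to 25470046, minus strand) encodes lipocalin-type prostaglandin D synthase, which makes prostaglandin D2 and also carries small lipophilic molecules. High-pigmented cells gave 155, 259 and 1569 CPM (pairs 1 to 3) and low-pigmented cells 51.5, 118 and 536 CPM. The high-pigmented library was the higher one of each pair, but the groups overlapped, because both libraries of pair 3 lay above all others. The means were 661 ± 788 CPM and 235 ± 263 CPM (SD, n = 3 each), and the log2 fold change was 1.49 ± 1.07 (SE). Within pairs the ratio of high over low was 3.00, 2.20 and 2.93, with exact 95% counting intervals of 2.64 to 3.42, 1.92 to 2.52 and 2.83 to 3.02. Such intervals cover counting error only, not the choice of scaling. On plain library totals *Ptgds* in pair 2 stood at 117 CPM in the high- and 86.6 CPM in the low-pigmented library, a smaller ratio. With the pairs as a block the log2 fold change was 1.43 ± 0.17 (SE). When that of pair 3 was left out of the high-pigmented libraries, and its low-pigmented partner kept, the unblocked log2 fold change was -0.20.

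*Mgll* (chromosome 6, 88724412 to 88828360, plus strand) encodes monoacylglycerol lipase, the main hydrolase of 2-arachidonoylglycerol. High-pigmented cells gave 49.5, 111 and 416 CPM (pairs 1 to 3) and low-pigmented cells 24.4, 28.4 and 89.5 CPM. In each pair the high-pigmented library was again the higher one, with overlap between the groups from the low-pigmented library of pair 3. The means were 192 ± 196 CPM and 47.4 ± 36.5 CPM (SD, n = 3 each). On the log2 scale the fold change was 2.02 ± 0.85 (SE), or 1.74 ± 0.31 with the pair block. The within-pair ratio was 2.03, 3.91 and 4.65, with counting intervals of 1.67 to 2.49, 3.05 to 5.03 and 4.32 to 5.02. The interval of pair 1 lay below those of pairs 2 and 3, but with 1 library of each kind in a pair the difference between pairs has no replicate check. The ratio of pair 2 also depends on scaling. On plain library totals its high-pigmented library stood at 50.3 CPM and its low-pigmented one at 20.9 CPM, a smaller ratio. Leaving out the high-pigmented library of pair 3 gave an unblocked log2 fold change of 0.73, and leaving out its low-pigmented partner gave 2.88. *Mgll* shares exon positions with *Gm26588* on the opposite strand, and the sources used here give no strand setting, so reads of the 2 genes may not be separated.

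**Figure D1:**
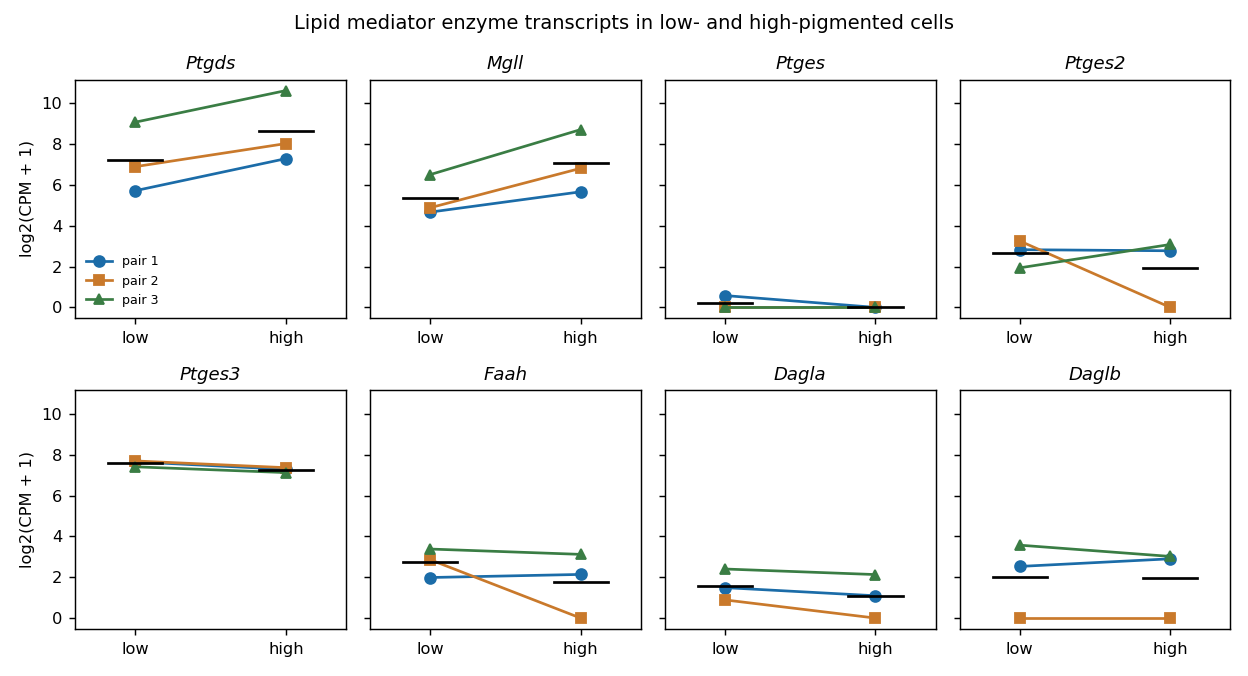
Level of each member, as log2(CPM + 1), in the low- and high-pigmented library of pairs 1 to 3 (lines join the libraries of a pair, black bars are group means of the plotted values, n = 3). *Ptgds* and *Mgll* are higher in the high-pigmented library of every pair, with pair 3 on top. *Ptges3* stays within 138 to 206 CPM and is lower in the high-pigmented library of every pair. The remaining members stay at or below 10.9 CPM.

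The *Ptgds* count was 3.12, 2.33 and 3.77 times that of *Mgll* in high-pigmented cells of pairs 1 to 3, and 2.11, 4.14 and 5.99 times in low-pigmented cells. That is a narrower range than the level of either gene covered, since the highest library was 30.5 times the lowest for *Ptgds* and 17.1 times for *Mgll*. Among all gene rows of the high-pigmented library of pair 3, *Ptgds* ranked 42 and *Mgll* 248 by level. In the low-pigmented library of pair 1 they ranked 2706 and 4849.

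The fits across all genes gave no call for the members taken by pathway. By edgeR's quasi-likelihood F test (Benjamini-Hochberg adjusted), 0 of 11324 genes (0%) passed an adjusted p of 0.05, among them 0 of the 7 members tested. Unadjusted, 38 genes (0.336%) had a p under 0.05. DESeq2 and limma-voom also gave 0 calls in this comparison, with 134 and 25 genes at an unadjusted p under 0.05. A count of 0 does not show that genes did not differ, since libraries of a group were far apart (biological coefficient of variation 71.6%). *Ptges* did not pass the filter on low counts and was not tested. Of the 7 members tested, 2 were higher and 5 lower in high-pigmented cells. Their median log2 fold change was -0.33, beside -0.04 over all genes tested. Members higher in the high-pigmented library of all 3 pairs were *Ptgds* and *Mgll*, where 12.9% of tested genes were. *Ptges3* and *Dagla* were lower in all 3 pairs, where 17.2% of tested genes were, *Dagla* with counting intervals that all included equal levels. The first of these counts was fixed by how the members were chosen. No member had all 3 high-pigmented libraries above all 3 low-pigmented ones, where 2.42% of tested genes did.

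The prostaglandin E synthases divided into 1 abundant and 2 scarce transcripts. *Ptges3* (chromosome 10, 128058954 to 128077272, plus strand) encodes p23, a co-chaperone of HSP90 that is also described as the cytosolic prostaglandin E synthase. High-pigmented cells gave 155, 164 and 138 CPM (pairs 1 to 3) and low-pigmented cells 200, 206 and 169 CPM. Every high-pigmented library lay below every low-pigmented one, which was so for 3.31% of tested genes in this direction. The means were 152 ± 12.8 CPM and 192 ± 20.1 CPM (SD, n = 3 each), and the log2 fold change of -0.33 ± 0.34 (SE) did not pass (adjusted p 0.9996 in edgeR's test). On library totals without scaling factors the groups overlapped, since the low-pigmented library of pair 2 then stood at 152 CPM, below the 204 and 181 CPM of high-pigmented cells in pairs 1 and 3. The ratio of high over low was 0.773, 0.795 and 0.820 within pairs 1, 2 and 3, and each counting interval lay below 1, the highest bound being 0.913. With the pair block the adjusted p was 0.927, and with the block and without pair 2 it was 0.305. Up to 480 nucleotides of *Ptges3* transcripts are identical to *Ptges3-ps*, so its counts are uncertain to that extent.

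*Ptges2* (chromosome 2, 32395896 to 32405772, plus strand) encodes the membrane-associated prostaglandin E synthase 2. It had 36, 0 and 64 counts in high-pigmented cells of pairs 1 to 3 and 37, 30 and 27 in low-pigmented cells, or at most 8.53 CPM. The direction differed between pairs: the ratio was 0.957 in pair 1 (counting interval 0.588 to 1.56) and 2.64 in pair 3 (1.66 to 4.31), while in pair 2 the high-pigmented library had no count. A count of 0 there allows up to 1.74 CPM. Its log2 fold change of -0.34 ± 1.27 (SE) turned to 0.66 with the block and without pair 2, with an adjusted p of 0.9996 and 0.702 in edgeR's test. *Ptges* (chromosome 2, 30889471 to 30929863, minus strand), the inducible synthase usually coupled to cyclooxygenase 2, had 3 counts in the low-pigmented library of pair 1 and 0 in the other 5 libraries. A count of 0 allows from 0.314 to 1.74 CPM, so at this depth no difference between the groups was detectable.

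**Figure D2:**
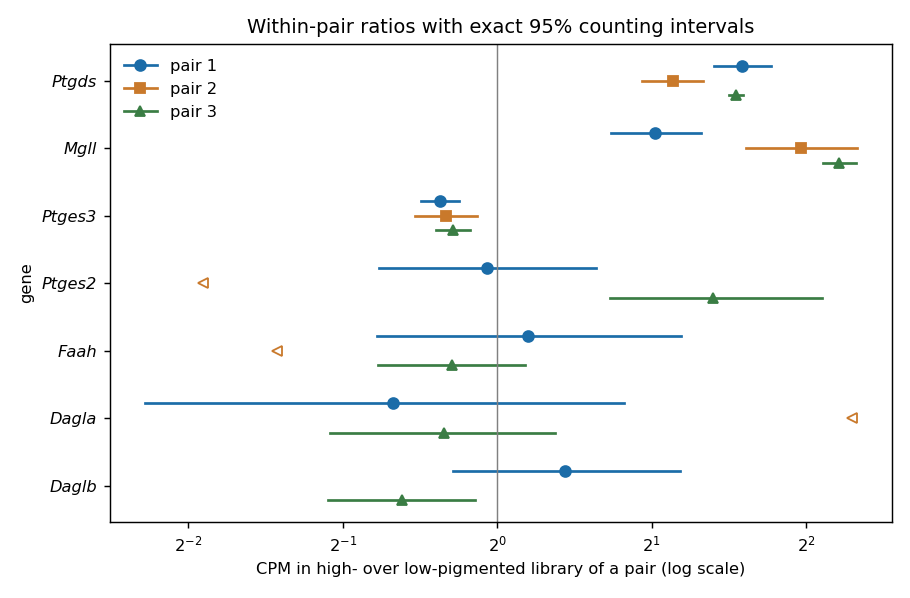
Ratio of the CPM in the high- over the low-pigmented library of each pair (log axis), with exact 95% counting intervals as lines. An open triangle marks the upper bound where the high-pigmented library had no count, and no mark is drawn for *Daglb* in pair 2, where neither library had a count. *Ptgds* and *Mgll* lie right of 1 in each pair, *Ptges3* lies left of 1 in each pair, and the sparse genes scatter around 1 in pairs 1 and 3.

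Among the members, the transcripts of endocannabinoid enzymes other than *Mgll* were scarce. *Dagla* (chromosome 19, 10245265 to 10304877, minus strand) and *Daglb* (chromosome 5, 143464584 to 143505942, plus strand) encode the diacylglycerol lipases, and *Faah* (chromosome 4, 115967145 to 116017926, minus strand) the hydrolase of anandamide. *Faah* had 21, 0 and 66 counts in high-pigmented cells of pairs 1 to 3 and 18, 22 and 90 in low-pigmented cells. Its counting intervals in pairs 1 and 3 both included equal levels, at 0.582 to 2.29 and 0.585 to 1.13. *Daglb* had 40, 0 and 61 counts against 29, 0 and 104, with ratios of 1.36 (0.820 to 2.27) in pair 1 and 0.653 (0.468 to 0.905) in pair 3, so its direction was not shared. *Dagla* was the lowest of the tested members, with 7, 0 and 29 counts against 11, 3 and 41. Its counting intervals of 0.206 to 1.77, 0 to 4.93 and 0.472 to 1.30 in pairs 1 to 3 all included equal levels. Their log2 fold changes were -0.69 ± 1.28 for *Faah*, -0.18 ± 1.63 for *Daglb* and -0.54 ± 1.36 for *Dagla* (SE), each with an adjusted p of 0.9996 in edgeR's test. *Daglb* shares up to 2309 nucleotides with *Rac1*, which lies on the opposite strand and had 439 to 4045 counts per library, so the counts of *Daglb* are uncertain.

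As counted, *Mgll* thus stood above *Dagla* and *Daglb* in every library. The counts of *Daglb* are uncertain because of *Rac1*, which limits this order. *Mgll* ranged from 24.4 to 416 CPM, while *Dagla*, *Daglb* and *Faah* summed to between 0 CPM, in high-pigmented cells of pair 2, and 24.6 CPM, in the low-pigmented one of pair 3. By mean over the 6 libraries the order was *Ptgds* at 448 CPM, *Ptges3* at 172, *Mgll* at 120, *Ptges2* at 5.12, *Faah* at 4.95, *Daglb* at 4.87, *Dagla* at 1.91 and *Ptges* at 0.0823 CPM. The neighbours *Ptges2*, *Faah* and *Daglb* differed by less than their SD between libraries of either group. The mean of *Ptgds* exceeded those of *Ptges3* and *Mgll* by less than its own SD in high-pigmented cells (788 CPM), and *Ptges3* and *Mgll* differed by less than the SD of *Mgll* there (196 CPM). *Ptges3* lay above *Ptgds* in 2 libraries, the low-pigmented ones of pairs 1 and 2.

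The level also differed between pairs, a difference that the choice of members did not use directly. Each pair holds 1 high- and 1 low-pigmented library, and these served as its only replicates. The p-values of this comparison thus measure the spread between such libraries, not between suffixes or cultures. That spread is the one of the within-pair differences, for which *Ptgds* and *Mgll* were chosen. Their p-values here are therefore not independent of the choice and may be too small. *Ptgds* in pair 3 was 10.1 times its level in pair 1 among high-pigmented and 10.4 times among low-pigmented libraries. For *Mgll* the ratios were 8.41 and 3.68. In edgeR's fit of group and pair, the log2 difference of pair 3 minus pair 1 was 3.36 ± 0.22 (SE) for *Ptgds*, with an adjusted p of 0.0942, and 2.46 ± 0.38 for *Mgll*, with an adjusted p of 0.165. Neither passed, nor did any of 11324 genes (0%), although 948 (8.37%) had an unadjusted p under 0.05. Without pair 2 both passed, at 3.36 (adjusted p 3.14e-15) and 2.52 (1.59e-05), as did 11.8% of tested genes in that direction and 13.7% in the other. With all 6 libraries they passed in DESeq2 (adjusted p 3.92e-29 and 6.36e-06), where 1.01% of genes were called higher, and in limma-voom (0.0175 and 0.0384), where 0.194% were. In edgeR they did not pass on library totals without scaling factors (adjusted p 0.506 and 0.507) or on RLE size factors (0.0836 and 0.164). They also did not pass at a minimum count of 30 (0.0954 and 0.163) or with no group term (0.209 and 0.451). With no filter on low counts *Ptgds* passed (0.0283) and *Mgll* did not (0.103). Without 1 library of pair 3 (high-, then low-pigmented), the log2 difference was 3.27 and 3.46 for *Ptgds* and 2.10 and 2.83 for *Mgll*. By size of this difference in the edgeR fit of all 6 libraries, *Ptgds* ranked 49 and *Mgll* 100 among the 11324 genes.

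The remaining members had smaller log2 differences between these pairs. *Faah* had a log2 difference of 1.34 that did not pass with all 6 libraries. It passed without pair 2 (1.42, adjusted p 0.0396 in edgeR's test) and without either library of that pair. Leaving out single libraries moved it from 0.20, without the high-pigmented one of pair 3, to 2.93, without that of pair 1, and moved *Dagla* from 0.74 to 1.97 and *Daglb* from 0.15 to 1.18. *Dagla* and *Daglb* differed by 1.42 ± 1.17 and 0.66 ± 1.05, *Ptges2* by -0.08 ± 1.73 and *Ptges3* by -0.20 ± 0.20, and none of them passed with or without pair 2. Where pair 2 stands in this order depends on scaling. On TMM-scaled sizes *Ptgds* in its high-pigmented library, at 259 CPM, lay above pair 1, whereas on plain library totals it lay below, at 117 against 204 CPM.

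**Figure D3:**
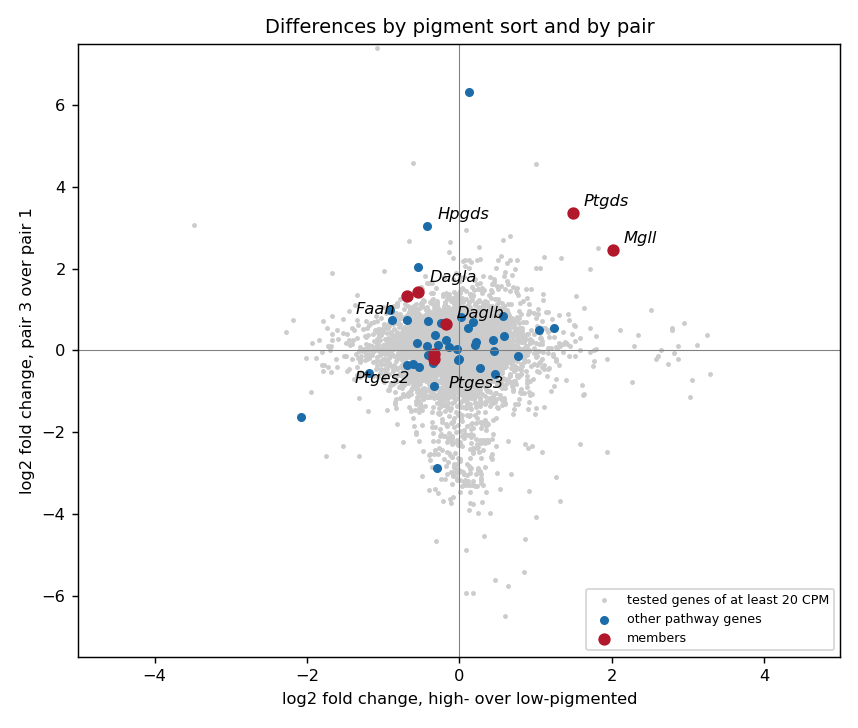
Log2 fold change of high- over low-pigmented cells (x axis) against that of pair 3 over pair 1 (y axis), for 5538 tested genes of at least 20 CPM (grey), the other pathway genes tested (blue) and the 7 members tested (red). *Ptgds* and *Mgll* are high on both axes, at 1.49 and 3.36 and at 2.02 and 2.46, and *Hpgds* on the vertical axis alone, at -0.43 and 3.03.

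Among melanocyte markers, the log2 difference of pair 3 minus pair 1 was 1.23 for *Mitf*, 0.88 for *Dct*, 0.69 for *Pmel*, 0.49 for *Sox10*, 0.31 for *Mlana*, 0.01 for *Tyrp1* and -2.44 for *Tyr*, so the 7 markers did not share a direction, and none passed in edgeR's fit of 6 libraries. High minus low was between 0.03 (*Dct*) and 0.71 (*Pmel*) in the fit of both groups, with SEs of 0.53 to 1.39. None passed with all 6 libraries (adjusted p 0.9996 in edgeR's test). With the block and without pair 2, *Pmel* passed, at 0.74 (adjusted p 0.00081 in edgeR's test), and no other marker did. Pair 3 minus pair 1 without pair 2 passed in edgeR's test for *Mitf* (adjusted p 1.78e-07), *Dct* (8.54e-07), *Pmel* (5.41e-05) and *Sox10* (0.0362). All of these were higher in pair 3, as were 11.8% of tested genes, while *Mlana*, *Tyrp1* and *Tyr* did not pass. *Tyr* differed by -0.04, -2.01 and 2.99 within pairs 1 to 3. In pair 2 all of the markers but *Mlana* (0.60) were lower in the high-pigmented library, from -0.39 (*Mitf*) to -2.01 (*Tyr*). The part of these genes in the levels of *Ptgds* and *Mgll* was not tested. In sorted bulk populations more cells that express a gene and more RNA per cell cannot be told apart.

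Profiles over the 6 libraries were compared by the root mean square difference of log2 CPM after each gene was centred on its own mean, among 5537 other genes of at least 20 CPM. *Mgll* was the second nearest gene to *Ptgds*, at 0.51, and *Ptgds* the second nearest to *Mgll*, where the median gene lay at 1.67 and 1.49. Nearest to *Ptgds* was *Trpm1*, a melanocyte cation channel gene, at 0.50, followed after *Mgll* by *S100a1* at 0.58, *Cited1* at 0.59 and *Ifit3* at 0.67. Nearest to *Mgll* was the calcium-binding protein gene *S100a1* at 0.37, then after *Ptgds* came *Trpm1* at 0.51, *Ifit3* at 0.56 and *S100a13* at 0.66. Over the 4 libraries of pairs 1 and 3 alone, *Mgll* ranked 4 for *Ptgds*, and *Ptgds* ranked 8 for *Mgll*. Both were chosen for the same direction, which brings their profiles closer.

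**Figure D4:**
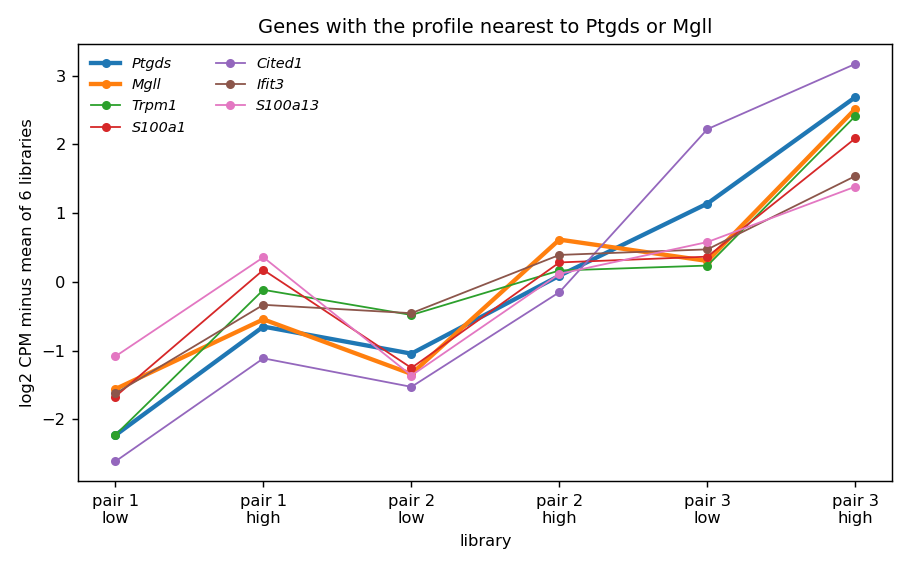
Log2 CPM minus the gene's mean over 6 libraries (y axis) in each library (x axis), for *Ptgds*, *Mgll* and the genes nearest to either. The 7 lines are higher at the high- than at the low-pigmented library within each pair and are highest in the high-pigmented library of pair 3.

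The wider pathway was read from 6 lists holding 82 genes, of which 58 were rows analysed here and 41 were tested. Of these 41, 15 were higher and 26 lower in high-pigmented cells, where 5326 of all genes tested were higher and 5998 lower. Their median log2 difference was -0.24, beside -0.04 over all genes tested. This split depended on pair 2. With the block and without pair 2, several of the 26 turned higher, such as *Acsl4* (0.20), *Ddhd2* (0.38) and *Abhd4* (0.31). Others, such as *Pla2g12a* (-0.23) and *Fabp5* (-0.17), stayed lower. Of the 41, 0 passed in edgeR's test (background 0%), 0 of them at an unadjusted p under 0.05. In all 3 pairs alike, 1 gene, *Scp2*, was higher and 6 were lower, namely *Pla2g12a*, *Pla2g5*, *Fabp5*, *Pnpla2*, *Gpx4* and *Cbr3* (backgrounds 12.9% and 17.2%). With the pair block and without pair 2, 2 of the 42 listed genes then tested were higher, where 0.932% of all genes were, and 0 were lower (background 0.370%). They were *Ephx1*, the microsomal epoxide hydrolase, at 0.88 (adjusted p 0.0102), and *Abhd12*, a serine hydrolase that also cleaves 2-arachidonoylglycerol, at 0.91 (adjusted p 0.0375). Both had the opposite direction in pair 2, with log2 differences of -1.45 and -1.68, against 0.75 and 1.00 for *Ephx1* and 0.95 and 0.87 for *Abhd12* in pairs 1 and 3.

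Within prostanoid synthesis, *Hpgds*, the haematopoietic prostaglandin D synthase, makes the same product as *Ptgds*. High-pigmented cells gave 4.86, 33.6 and 32.2 CPM (pairs 1 to 3) and low-pigmented cells 3.46, 54.0 and 37.1 CPM. It had a log2 difference of 3.03 ± 0.50 (SE) for pair 3 minus pair 1 (adjusted p 0.181 in edgeR's test, and 4.33e-08 without pair 2) and of -0.43 for high minus low. *Hpgds* made up 2.01% to 11.5% of the summed counts of both synthases in high-pigmented libraries and 6.29% to 31.5% in low-pigmented ones, and less in the high- than in the low-pigmented library of each pair, a direction that the choice of *Ptgds* bears on. *Ptgs1*, the constitutive cyclooxygenase, was low, at 2.59 to 26.0 CPM, with its highest value in the high-pigmented library of pair 2. Reductase genes were moderate, with means of 34.5 CPM for *Ptgr2* and 28.6 CPM for *Akr1b3*, and log2 fold changes of 0.45 and -0.35.

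Arachidonate release and supply genes numbered 11 tested, 3 higher and 8 lower, with a median of -0.28. The most abundant were *Acsl4*, an acyl-CoA ligase that favours arachidonate, at 82.2 CPM, and the elongase gene *Elovl5* at 70.3 CPM. Their log2 differences in pairs 1, 2 and 3 were 0.23, -2.86 and 0.20 and 0.17, -2.63 and -0.14, so both were lower mainly in pair 2, and their log2 fold changes were -0.24 and -0.28. *Fads1* had 0.33, -1.25 and -0.69, and *Lpcat3* had no count in the high-pigmented library of pair 2. *Pla2g12a*, a secreted phospholipase A2, was lower in each pair, at -0.13, -0.64 and -0.30. *Pla2g4a*, the cytosolic phospholipase A2, had 9.55, 0 and 1.51 CPM in high- and 9.38, 3.70 and 0.941 CPM in low-pigmented libraries, thus lower in pair 3 than in pair 1 in both populations, the opposite order to *Ptgds* (adjusted p 0.792 in edgeR's fit).

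Among 13 tested genes of endocannabinoid synthesis and breakdown, 4 were higher and 9 lower, with a median of -0.17. Here too the split depended on pair 2, since *Ddhd2* and *Abhd4* turned higher without it. *Gdpd1*, *Ddhd2*, *Gde1*, *Abhd12*, *Pnpla2* and *Abhd4* had means of 22.9 to 61.1 CPM, and the largest within-pair log2 difference among these 6 was that of *Gde1* in pair 2, at 4.63. Carrier genes were the most abundant of their list, with *Fabp5* at 138 CPM and *Scp2* at 64.7 CPM, and log2 fold changes of -0.33 and 0.47. In the lipoxygenase and epoxide branch, *Gpx4*, which reduces lipid peroxides, had 208 CPM and a log2 fold change of -0.34, and *Lta4h* 71.3 CPM and 0.21. Receptor genes were sparse. The prostacyclin receptor gene *Ptgir* had 0.647 to 27.9 CPM, highest in both libraries of pair 2, and *Ptger1*, *Ptger4* and the cannabinoid receptor gene *Cnr2* had at most 2.27 CPM. These receptor genes, *Ptgs1*, *Pla2g4a*, *Pla2g5*, *Cbr3* and *Ppara* lie below the level set for naming genes and were added after their values were seen.

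**Figure D5:**
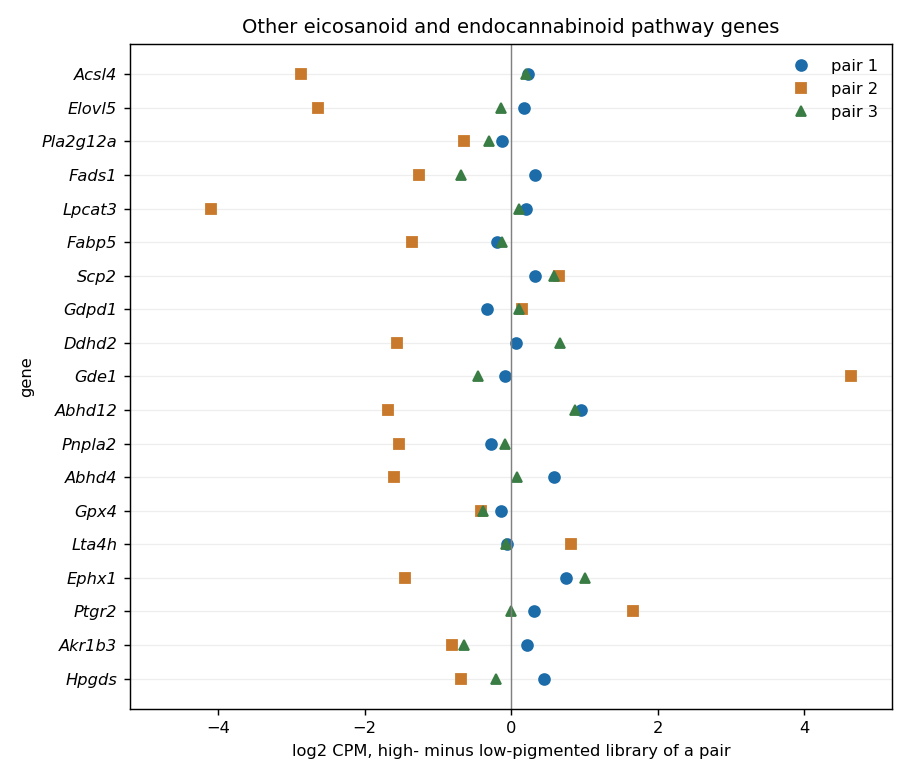
Log2 CPM of the high- minus the low-pigmented library (x axis) in pairs 1, 2 and 3, for the 19 other pathway genes with a mean of at least 20 CPM (y axis). Pairs 1 and 3 lie between -0.69 and 1.00, while pair 2 ranges from -4.09 for *Lpcat3* to 4.63 for *Gde1*.

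Between pairs, 0 of the 41 listed genes passed for pair 3 against pair 1, and 2, *Hpgds* and *Ppara*, had an unadjusted p under 0.05. Without pair 2, 9 of 42 passed, 6 of them higher in pair 3 (backgrounds 11.8% and 13.7%). Besides *Hpgds*, *Abhd12* and *Ephx1*, the higher ones were *Acsl4*, *Lpcat3* and *Pnpla2*, and the lower ones were *Pla2g4a*, *Fabp5* and *Scp2*.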

How the data were processed

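Raw gene counts were deposited by the authors for 6 libraries in 2 groups of 3 (3′-end mRNA libraries, per the labels' protocols). HTSeq made them, going by the deposited table's name and tally rows. The submitters' processing notes name STAR and GRCm38. Annotation, counting mode, strand and versions are not given in the sources used here. Reads on no gene (12.4% to 29.5% of tallied reads) or on several genes (0.487% to 2.51%) were left out. No molecular identifiers are mentioned, so copies of one molecule are counted as reads.

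Genes were kept with filterByExpr (minimum count 10), TMM-normalised and tested with edgeR 4.0.16 (glmQLFit and glmQLFTest, robust) in R 4.3.3, group only, with Benjamini-Hochberg adjustment over all genes tested. Pair 3 against pair 1 was tested in a fit of group and pair. Standard errors come from the test statistic, log2 differences within pairs use a prior count of 2, and intervals are exact binomial (95%). DESeq2 1.42.0 and limma-voom 3.58.1 were alternatives. Members, lists and tests were chosen with earlier results of these data known. Named genes were the members, listed genes of at least 20 CPM or with an unadjusted p under 0.05 (adjusted, with the block and without pair 2), the 5 nearest profiles, *Pmel*, *Mitf* and *Sox10*, with additions marked as such. Libraries of one suffix deviated together from their group means (correlations of 0.466, 0.316 and 0.422), so the suffix, from the titles, was taken to pair them. Every library differed from the others beyond sampling noise (lowest chi-square over its degrees of freedom 13.5). Positions and shared sequence (at least 100 nucleotides, at least 95% identity, blastn 2.17.0) come from GENCODE on GRCm38. The fits were also run on simulated counts with a smaller random spread than these libraries had, so that run does not show what the fits can detect here. The result of 1 further marker list is not reported here.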

Additional observations from a re-analysis of the deposited data

How the results depend on the processing

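High against low, 0 genes passed under 15 of 16 alternatives, the replicate block (0 genes) included, and the block changed no call of a member or pathway gene with all 6 libraries. With the block and without pair 2, edgeR called 155 of 11906 genes (0.932% higher and 0.370% lower) and 2 of 42 pathway genes. *Ptgds* and *Mgll* were among the 155, but they were chosen for this difference, so this is no test of them. The cause of the added calls was not tested. The *Ptgds* log2 fold change kept its sign under 15 alternatives (1.02 to 2.98) but was -0.20 when the high-pigmented library of pair 3 was left out. For *Mgll* the range was 0.73 to 2.88. *Ptges3* stayed lower throughout (-0.48 to -0.28), and *Faah* too (-1.76 to -0.09). Directions of sparse members turned: *Ptges2* was 0.66 and 0.58 without pair 2 (with and without the block) and 0.04 and 0.21 without a single library of pair 2 (range without single libraries -0.91 to 0.21). *Dagla* was 0.24 without the low-pigmented library of pair 3 (range -1.83 to 0.24), and *Daglb* 0.38 in limma-voom and 0.35 and 0.93 without single libraries (range -0.74 to 0.93). The median of all genes shifted from -0.04 to -0.13 on library totals.

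For pair 3 against pair 1, 0 genes passed in edgeR, 3035 without pair 2, 433 in DESeq2, 130 in limma-voom, 14 with no filter, 84 with no group term and 0 to 3098 without single libraries, the high counts being those without a library of pair 2 (3013 and 3098); the cause was not tested. *Ptgds* stayed between 3.24 and 3.48, *Mgll* between 1.94 and 3.01, and *Ptges2* turned to 0.95 and 1.10 when leaving out the high-pigmented library of pair 1 or the low-pigmented one of pair 3 (range -2.61 to 1.10). Counts near 0 limit *Ptges*, *Ptges2*, *Faah*, *Dagla* and *Daglb*.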
